A study of Mus musculus with 12 samples.

Results

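Livers of mice fed a high-fat diet with luteolin (LU group, 3 mice) were compared with livers of mice fed a normal diet (ND group, 3 mice), to ask which hepatic functions stayed away from the normal-diet level although luteolin was in the diet. These are 6 of the 12 livers sequenced, and they were taken by the diet in their sample labels. All mice were male C57BL/6J, kept on their diet for 16 weeks and 21 weeks old at the end. The LU diet was the high-fat diet with 0.003% (w/w) luteolin, a flavone found in chrysanthemum leaves. The high-fat diet without an addition (HFD group, 3 mice) serves here as the third reference, and the livers of a leaf-extract group entered the fit and are not described. The 3 livers of a group were called representative of it in the methods, mice were fasted before the liver was removed, and the hour of removal is not stated. The LU and ND groups differ in the fat of the diet and in luteolin together, so the LU-minus-ND difference cannot be assigned to either. Whole liver was sequenced, in which fewer cells of a type and less RNA per cell cannot be told apart.

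The liver makes cholesterol, bile acids, lipoproteins and plasma proteins and disposes of drugs and nitrogen. Dietary cholesterol and fat reach it through lipoproteins, and sterol synthesis is switched by the sterol-sensing factor SREBP2, while surplus sterol switches LXR targets such as the sterol exporters Abcg5 and Abcg8. In male mice the pulses of growth hormone keep a set of male-biased genes on, among them the major urinary proteins. The circadian clock, driven by Clock and Arntl and held back by the Per and Cry proteins, sets the daily rhythm of many of these genes.

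Expression was given as FPKM, fragments relative to transcript length and library size, which the authors estimated with Cufflinks. Transcripts of a gene name were summed, and 11469 of 22017 gene names, with 0.5 FPKM or more on average in the 12 livers, were tested. Differences are on the log2(FPKM + 1) scale, on which changes of weakly expressed genes come out too small. A gene was called when limma's adjusted p was under 0.05 over all tested genes. Read counts are not in the files and the sequencing depth behind the values is unknown. Sums over all gene names were 534040 to 559636 FPKM in ND livers and 582659 to 608821 in LU livers. Transcripts with no reference were left out of these sums, and in every library they held more FPKM than the sum itself. Nothing in the labels says more of how the mice of a group were related. The p-values rest on the spread between livers within groups, pooled over all 12 livers and moderated over genes by limma. They are therefore not a measure of the spread of a single group. With 3 mice in each group the smallest p of an exact permutation test is 0.1. Pearson's r between livers of 1 group was 0.989 to 0.991 in ND and 0.977 to 0.988 in LU. Hepatocyte genes such as Apob (1916 to 2285 FPKM in ND, 1793 to 2127 in LU) were high in every liver, while albumin was listed at 0 in 11 of the 12 libraries, so a 0 in these files can be a failed estimate.

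Between LU and ND livers, 1720 of 11469 genes were called (15%), 1281 higher in LU (11.2%) and 439 lower (3.83%). The values of the 3 LU mice did not overlap those of the 3 ND mice in 4715 genes (41.1%). The median difference of all tested genes was 0.12. With median-of-ratios scaling the median was 0.02, and 728 genes were higher (6.35%) and 1046 lower (9.12%). Quantile normalization gave 730 higher (6.36%) and 990 lower (8.63%). With a correction for GC content, added after seeing the data, 510 were higher (4.48%) and 752 lower (6.60%) of 11386 genes. Sums by the GENCODE M21 annotation, also added after seeing the data, gave 1298 higher (10.9%) and 444 lower (3.71%). The relation of a library to GC content was also split between the groups, with Spearman correlations across genes of -0.37 to -0.18 in ND libraries and 0.22 to 0.36 in LU libraries, and its part in the result cannot be told apart from the diets. The HFD libraries, at -0.38 to -0.14, were on the side of ND, so the same holds for LU against HFD. Of the 1720 genes, 786 were called in the same direction under median-of-ratios scaling, quantile normalization and the GC correction alike, 373 higher and 413 lower. These 3 settings are named below as the other scalings. In the HFD livers, which are compared with the same ND mice, 1383 genes were called (12.1%), 1143 higher (9.97%) and 240 lower (2.09%), and 36.4% did not overlap. Between LU and HFD livers, 119 genes were called (1.04%), 34 higher in LU (0.296%) and 85 lower (0.741%), and 30.2% did not overlap. With the GC correction the number was 84, and with 1 mouse left out it was 15 without LU mouse 3, 43 without LU mouse 2, 70 without ND mouse 4, 81 or 89 without another ND mouse and 224 without LU mouse 8.

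**Figure D1:**
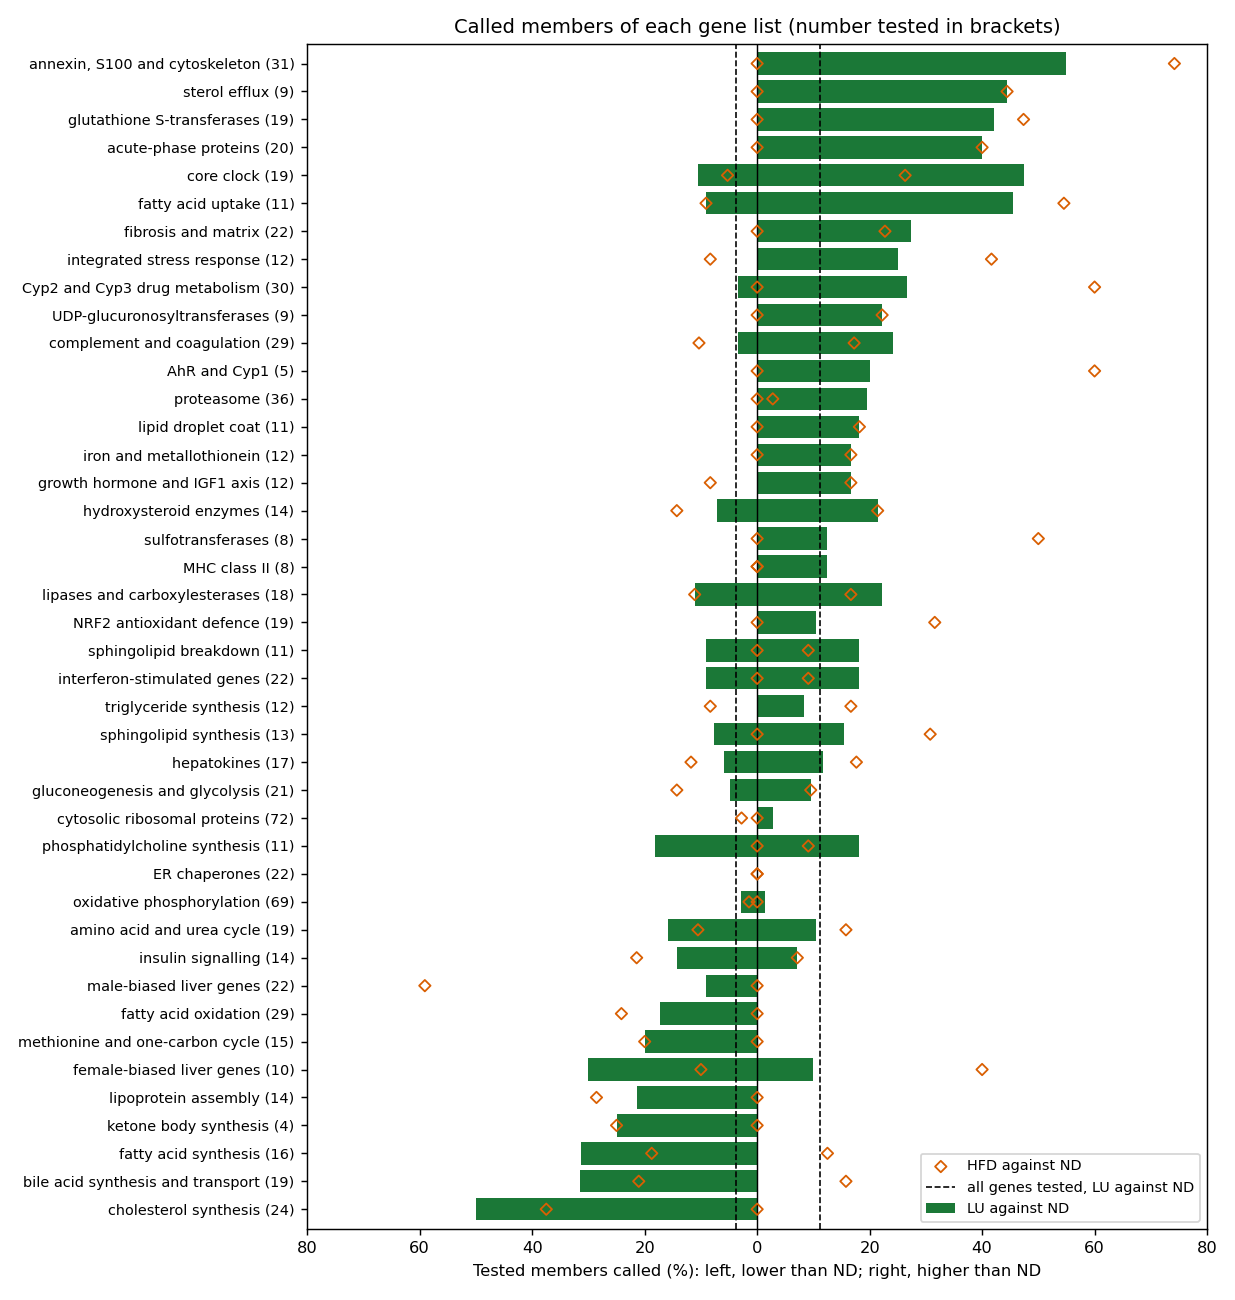
Share of the tested members of each list of functions (marker lists of cell types are not drawn) that were called, in percent, to the right for higher and to the left for lower than ND. Bars are LU against ND, open diamonds HFD against ND (the same ND mice), and dashed lines the share of all tested genes in LU against ND (11.2% higher and 3.83% lower). Of the bars, cholesterol synthesis reaches furthest to the left and the annexin, S100 and cytoskeleton list furthest to the right.

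Mice within a group were not alike in some functions. The liver of ND mouse 3 had the highest value of its group in many sterol and clock genes, and that of LU mouse 8 was nearest to the HFD livers in many male-biased genes. List counts that moved by more than 1.5 times with 1 mouse left out are given below for the main lists.

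Cholesterol synthesis was lower in the LU livers. Of the 24 tested genes of the pathway, 12 were called lower and 0 higher, against 3.83% of all genes called lower, and all 12 were also called lower under each of the other scalings. The median difference of the 24 genes was -0.61, beside 0.12 for all genes. Among them were the transcription factor gene Srebf2, the enzymes Pmvk, Idi1, Fdps, Sqle, Cyp51, Msmo1, Nsdhl, Hsd17b7 and Dhcr7, and the sterol carrier gene Stard4. In HFD livers 9 members were called lower, and between LU and HFD livers 0 were called by limma (4 of 24 at an unadjusted p under 0.05, against 2341 of all 11469 genes).

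Many members have the same short element in their promoter. Of the 18 members with a promoter in the RefSeq table (GRCm38.p6), 17 (94.4%) hold the CCAAT box, CCAAT on either strand, in the 250 bases before the start that RefSeq gives, as do 10133 of all 27025 genes with a promoter (37.5%). Of the 8 called members with a promoter, 8 hold it. The sterol regulatory element, searched as TCACNCCAC on either strand with N for any base, was in 1 of the 18 (5.56%) and in 1.22% of all promoters. The CCAAT box is the element of the factor NF-Y and is found in many promoters, so a match describes these letters and not a bound site. Starts differ between annotations, and for Idi1 and Cyp51 the GENCODE start lies further upstream, so that their boxes fall inside the gene as GENCODE gives it. The promoters of Nsdhl (chrX:72918271-72918520, plus strand) and Pmvk (chr3:89454291-89454540, plus strand) are shown 5′ to 3′ because these called members hold the box before the start in both annotations. Capitals mark the CCAAT box or its reverse complement.
Nsdhl: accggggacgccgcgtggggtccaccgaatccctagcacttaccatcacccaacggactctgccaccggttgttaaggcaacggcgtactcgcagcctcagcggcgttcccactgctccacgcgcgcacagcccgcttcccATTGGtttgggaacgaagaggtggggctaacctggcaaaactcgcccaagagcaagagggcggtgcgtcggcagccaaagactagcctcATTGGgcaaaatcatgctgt
Pmvk: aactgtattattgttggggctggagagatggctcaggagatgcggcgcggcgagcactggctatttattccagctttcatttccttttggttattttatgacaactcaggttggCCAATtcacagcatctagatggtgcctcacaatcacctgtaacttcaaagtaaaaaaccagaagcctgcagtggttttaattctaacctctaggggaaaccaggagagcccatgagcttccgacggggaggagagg
Nsdhl, a sterol dehydrogenase, was 6.04, 16.6 and 8.36 FPKM in ND mice, 5.31, 8.57 and 6.49 in HFD mice and 3.52, 2.45 and 3.04 in LU mice, every LU liver under every ND liver (difference -1.40, standard error 0.27, adjusted p = 0.0084).

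Idi1, on chromosome 13 (8885501 to 8892451, plus strand, GRCm38), encodes the isomerase that makes the building block of isoprenoids. Its level was 9.11, 28.8 and 13.1 FPKM in the ND mice and 2.17, 2.55 and 3.14 in the LU mice, and 2.54, 3.84 and 3.2 in the HFD mice. No LU or HFD liver reached the lowest ND liver, and ND mouse 3 was the highest of all. The LU-minus-ND difference was -2.17 (standard error 0.32, limma adjusted p = 0.0025), and it was between -2.51 and -1.73 with each mouse left out in turn. Sqle, on chromosome 15 (59315077 to 59331192, plus strand), encodes squalene epoxidase, a rate-limiting enzyme of the pathway. Its level was 2.05, 5.27 and 3.54 FPKM in ND mice, 0.323, 0.488 and 0.509 in LU mice and 0.318, 0.471 and 0.558 in HFD mice, so that the LU and HFD livers overlapped and both lay under ND. The difference was -1.62 (standard error 0.20, adjusted p = 9.2e-04).

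Cyp51, the sterol demethylase, was 11.4, 18.5 and 10.2 FPKM in ND mice and 3.57, 4.44 and 3.84 in LU mice (difference -1.50, standard error 0.20, adjusted p = 0.0011). Fdps, which makes farnesyl diphosphate, was 16.9, 54.9 and 14.8 FPKM in ND mice and 9.66, 7.04 and 7.9 in LU mice (difference -1.46, standard error 0.34, adjusted p = 0.018). ND mouse 3 again had the highest level of both genes. Without it, 10 members were called lower, and without LU mouse 3 the number was 8, the lowest of the 6 runs with 1 mouse left out. The plot of intervals by gene shows these members beside the clock genes.

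**Figure D2:**
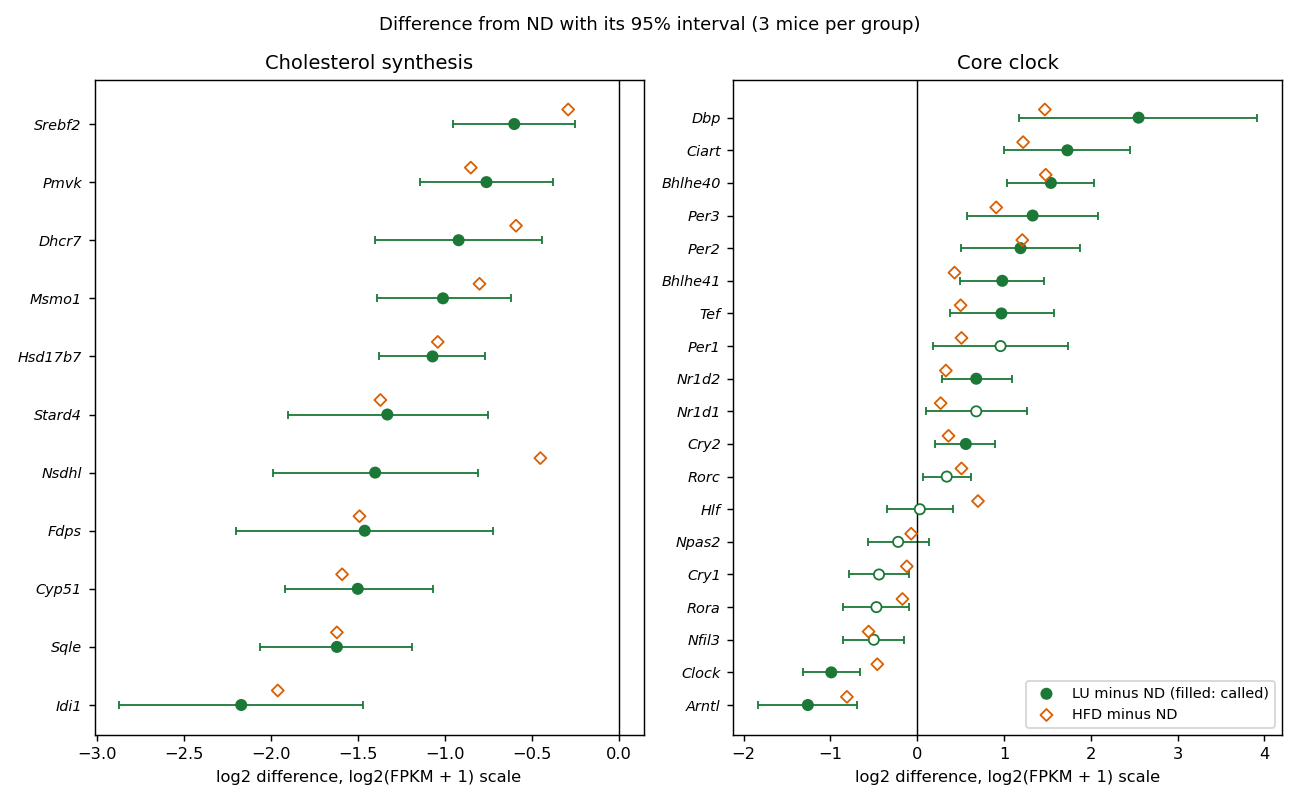
LU-minus-ND difference of 11 called genes of cholesterol synthesis (left) and of each tested gene of the core clock (right) on the log2(FPKM + 1) scale, with its 95% interval from limma and 3 mice per group. Filled circles are called genes, and open diamonds give HFD minus ND from the same ND mice. Sterol genes run from -2.17 for Idi1 to -0.60 for Srebf2, and clock genes from -1.26 for Arntl to 2.55 for Dbp.

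Sterol exporters were higher in LU livers. Of 9 tested genes of sterol efflux and esterification, 4 were called higher and 0 lower (44.4%, beside 11.2% of all genes called higher). Of these 4, 3 held under each of the other scalings. Abcg5, half-transporter of sterols into bile with Abcg8, was 26.7, 30.7 and 29.4 FPKM in ND mice and 113, 83.5 and 94.7 in LU mice. Every LU liver was above every ND liver, as were the HFD livers at 131, 107 and 120 FPKM. The difference of Abcg5 was 1.71 (standard error 0.13, adjusted p = 2.1e-05), and that of Abcg8 was 0.98 (adjusted p = 0.0065). The cholesterol exporter Abcg1 rose by 0.81 (adjusted p = 0.0062) and Soat2, which esterifies cholesterol, by 0.64 (adjusted p = 0.028). The call of Soat2 was lost with the GC correction (adjusted p = 0.095). Between LU and HFD livers 0 of the 9 genes were called by limma (2 at an unadjusted p under 0.05).

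Some genes of bile acid synthesis and transport were lower in LU livers, and a few were below the HFD livers too. Of 19 tested genes, 6 were called lower and 0 higher (31.6%, beside 3.83% of all genes called lower), all 6 also under each of the other scalings. The median difference of the list was -0.19. The synthesis genes Cyp7b1, Cyp27a1, Hsd3b7, Amacr and Baat were tested and not called. Against HFD livers 2 were lower, Cyp7a1 and Akr1d1, and 1 was higher, the transporter Slco1a1, while HFD livers had 3 higher and 4 lower than ND. Cyp7a1, the rate-limiting enzyme of bile acid synthesis, was 118, 183 and 89 FPKM in ND mice, 83.8, 118 and 157 in HFD mice and 49.8, 32.9 and 54.8 in LU mice. All LU livers lay under all ND and HFD livers, while the ND and HFD livers overlapped. The difference was -1.45 from ND (standard error 0.27, adjusted p = 0.0067) and -1.35 from HFD (adjusted p = 0.039). Akr1d1, the bile acid reductase, fell by 0.64 from ND (adjusted p = 0.034) and by 1.23 from HFD (adjusted p = 0.0089). Klb, the co-receptor through which the gut signal FGF15 acts on the liver, was 12.5, 12.3 and 10.3 FPKM in ND mice and 5.68, 4.83 and 6.53 in LU mice (difference -0.93, adjusted p = 0.0089). Cyp8b1, which sets the share of cholic acid, fell by 0.59 (adjusted p = 0.038), and the bile acid importer Slc10a1 by 0.48 (adjusted p = 0.046). With 1 mouse left out, 2 to 5 of the 19 genes were called lower than in ND, 2 without ND mouse 4 and 3 without ND mouse 3, LU mouse 3 or LU mouse 8. Against HFD, 0 were called lower without LU mouse 3, 1 without ND mouse 2 or LU mouse 2 and 2 or 3 in the other runs. The number higher than in HFD was 0 without LU mouse 2 or LU mouse 3. Cyp39a1, a hydroxylase of oxysterols on the way to bile acids, was 12.1, 10.9 and 12.5 FPKM in ND mice and 2.16, 1.83 and 6.24 in LU mice (difference -1.68, adjusted p = 0.0065). LU mouse 8 had the highest of the LU values of Cyp39a1, at the level of the HFD mice (6.52, 11.3 and 6.2 FPKM).

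In fatty acid synthesis and elongation, 5 of 16 tested genes were called lower and 0 higher (31.2%, beside 3.83% of all genes called lower). Of these 5, 4 held under each of the other scalings. Acacb, the mitochondrial acetyl-CoA carboxylase, was 15.5, 25 and 14.5 FPKM in ND mice and 7.33, 7.18 and 7.95 in LU mice (difference -1.15, adjusted p = 0.017). With its most abundant transcript alone the difference was -0.16 (adjusted p = 0.73). Acacb was 3, 5.25 and 5.15 FPKM in HFD mice, under every LU liver, and LU minus HFD was 0.66 (adjusted p = 0.19). The elongases Elovl6 and Elovl5 fell by 1.15 and 0.69 (adjusted p = 0.03 and 0.048), the desaturase Fads1 by 1.03 (adjusted p = 0.029) and the lipid hydrolase Pnpla3 by 0.64 (adjusted p = 0.0082). The synthase Fasn had a difference of 0.41 (95% interval -0.20 to 1.02, adjusted p = 0.31) and the desaturase Scd1 one of -0.20 (-1.15 to 0.75, adjusted p = 0.77), intervals that leave room for changes in either direction. ND mouse 3 had the highest level of Scd1, Fasn, Elovl6 and Fads1 in its group, and without it 1 of the 16 genes was called lower and 1 higher. The number called lower was 2 without ND mouse 4 or LU mouse 3 and 3 to 5 in the other runs with 1 mouse left out. In HFD livers 2 members were higher and 3 lower than in ND, and 0 were called between LU and HFD livers by limma (1 at an unadjusted p under 0.05).

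Genes of fatty acid uptake were higher in LU livers. Of 11 tested genes, 5 were called higher and 1 lower (54.5% called, beside 15% of all genes), and 4 and 1 of them under each of the other scalings. Lpl, the lipase that frees fatty acids from lipoproteins and is low in adult liver, was 2.51, 4.61 and 3.69 FPKM in ND mice, 15.1, 18.5 and 17.9 in HFD mice and 12.3, 14.8 and 15 in LU mice. LU and ND livers did not overlap, and the difference was 1.73 (standard error 0.19, adjusted p = 5.4e-04). Cd36, the fatty acid translocase, was 38.6, 55 and 38.8 FPKM in ND mice, 144, 161 and 141 in HFD mice and 73.7, 74.8 and 105 in LU mice. Its LU livers lay between the other groups (LU minus ND 0.92, adjusted p = 0.015, and LU minus HFD -0.83, adjusted p = 0.073). The fatty acid binding proteins Fabp4 and Fabp2 rose by 1.33 and 0.67 (adjusted p = 0.014 and 0.012), and the lipoprotein receptor gene Vldlr by 0.82 (adjusted p = 0.03). Fabp5, a binding protein of the same family, went the other way, from 53.4, 241 and 51.1 FPKM in ND mice to 21.7, 31.1 and 14.7 in LU mice (difference -1.97, adjusted p = 0.018). The HFD mice were at 9.28, 9.67 and 6.44 FPKM, under every LU liver, and LU minus HFD was 1.27 (adjusted p = 0.16). Without LU mouse 8 the call of a lower member was lost, and the number of higher members was 2 without ND mouse 4, 3 without ND mouse 2 and 4 or 5 in the other runs.

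A lipid droplet gene had the second largest increase of the genes named here. Cidea, a droplet protein of fat cells and fatty liver that promotes the growth of droplets, was 0.419, 0.68 and 0.302 FPKM in ND mice, 32, 30.7 and 15.8 in HFD mice and 38.4, 12.9 and 28.1 in LU mice. The LU and HFD livers overlapped, and the lowest LU liver was above the highest ND liver. The LU-minus-ND difference was 4.11 (standard error 0.40, adjusted p = 1.8e-04), and LU minus HFD was -0.05 (95% interval from the same fit -0.92 to 0.82). Fitm1, which partitions fat into droplets, rose by 0.98 (adjusted p = 0.0076). Plin2, the main droplet coat of hepatocytes, had a difference of 0.04 (95% interval -0.35 to 0.43). Cidea and Fitm1 were the 2 called members of 11 tested (18.2%, beside 15% of all genes).

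Among lipases and carboxylesterases, 4 of 18 were called higher and 2 lower (33.3% called, beside 15% of all genes). Of these, 2 and 2 held under each of the other scalings. Without ND mouse 2 or LU mouse 2, 1 was higher and 1 lower, and without LU mouse 3, 2 and 1. Ces1g, a triglyceride hydrolase, was 37.9, 35.4 and 48.8 FPKM in ND mice, 146, 149 and 180 in HFD mice and 96.7, 62.7 and 77 in LU mice, so each LU liver lay between the other groups. Its difference was 0.93 from ND (adjusted p = 0.0053) and -1.02 from HFD (adjusted p = 0.013). Ces1d, of the same gene cluster, was 603, 512 and 723 FPKM in ND mice and 395, 203 and 308 in LU mice (difference -1.06, adjusted p = 0.01). These esterases share sequence, and fragments can be shared out between them. Mogat1, which makes diacylglycerol, was 4.4, 4.39 and 6.28 FPKM in ND mice, 26.4, 26.6 and 25.6 in HFD mice and 9.45, 8.47 and 10.4 in LU mice. It was the 1 called member of 12 genes of triglyceride synthesis (8.33%, under the 15% of all genes). Its difference from ND was 0.80 (adjusted p = 0.025, and 0.19 with the GC correction). With the most abundant transcript alone the difference was 0.16 (adjusted p = 0.71). The difference from HFD was -1.39 (adjusted p = 0.0089).

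Fatty acid oxidation showed 5 of 29 tested genes lower and 0 higher (17.2%, beside 15% of all genes called and 3.83% called lower). The median difference of the list was -0.02. All 5 lower genes were also called under each of the other scalings. They were Ppara, the fatty acid sensor (difference -0.62, adjusted p = 0.025), Hadha and Hadhb of the trifunctional protein (-0.44 and -0.47), Etfdh (-0.62, adjusted p = 0.021) and the omega-hydroxylase Cyp4a14. Cyp4a14 was 4678, 2286 and 4224 FPKM in ND mice and 988, 1223 and 1739 in LU mice (difference -1.47, adjusted p = 0.025). The gate enzyme Cpt1a was at 346, 339 and 332 FPKM in ND mice and 335, 328 and 367 in LU mice (95% interval of the difference -0.27 to 0.31). The 95% interval lay within a 2-fold change in either direction for 27 of the 29 genes, and for 10309 of all genes (89.9%). The calls of this list were not steady: 0 genes were called lower without ND mouse 2, ND mouse 4, LU mouse 2 or LU mouse 3, 3 without ND mouse 3 and 5 without LU mouse 8. In lipoprotein assembly, 3 of 14 genes were lower (21.4%, beside 3.83% of all genes), and 2 of them held under each of the other scalings. The 3 were Mttp, which loads lipid onto apolipoprotein B (difference -0.63, adjusted p = 0.0098), Pltp (-1.31, adjusted p = 0.013) and Apoa4 (-1.44, adjusted p = 0.047). Apoa4 was 374, 484 and 1210 FPKM in the LU mice, with LU mouse 8 nearest to the ND range of 1560 to 1691.

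**Figure D3:**
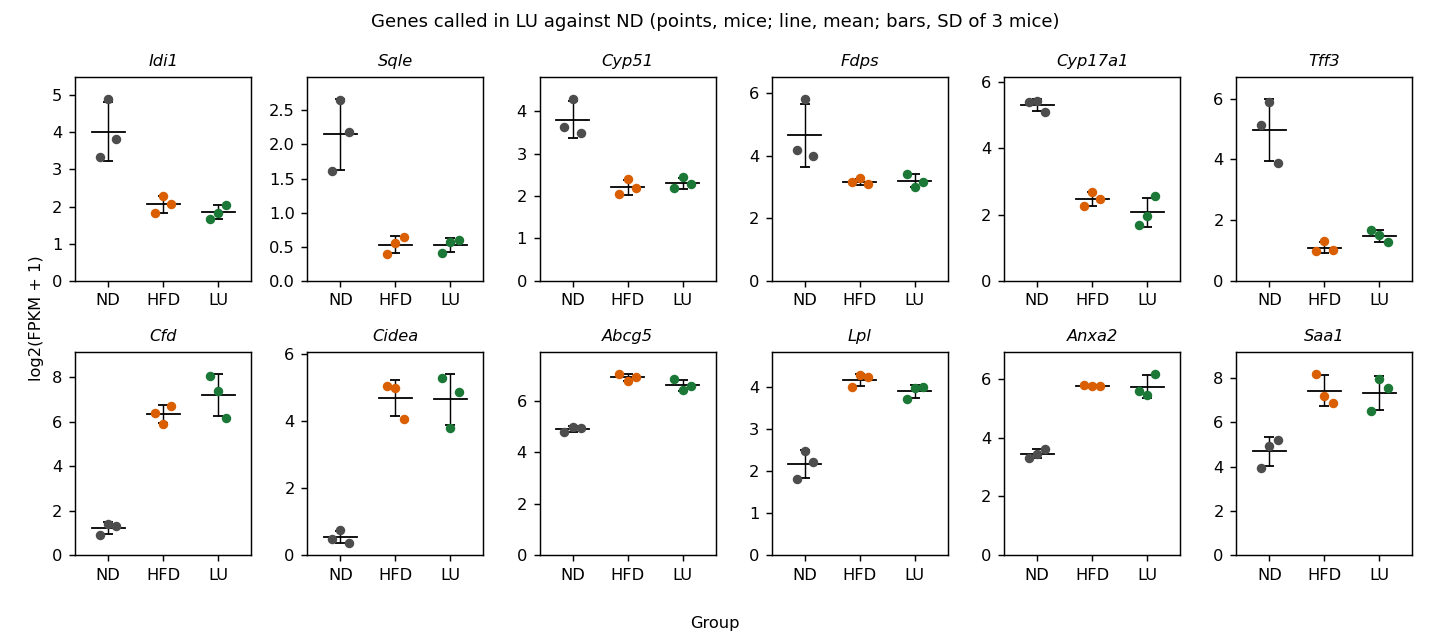
Expression of 12 genes called in LU against ND, as log2(FPKM + 1) for each mouse of the ND, HFD and LU groups, with the mean and SD of 3 mice. In every panel the LU mice and the ND mice do not overlap, and the LU mice lie near the HFD mice.

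In sugar metabolism and insulin signalling, levels moved gene by gene. Igfbp2, a binding protein of insulin-like growth factors, was 462, 280 and 417 FPKM in ND mice, 170, 118 and 161 in HFD mice and 454, 497 and 385 in LU mice. The LU and ND livers overlapped (difference 0.23, 95% interval -0.28 to 0.73), and LU was above HFD by 1.57 (adjusted p = 0.0089). Igfbp1, which insulin keeps low, was 212, 68 and 272 FPKM in ND mice and 40.4, 43.4 and 62.4 in LU mice (difference -1.70, adjusted p = 0.02). The insulin receptor substrate Irs2 fell by 0.91 (adjusted p = 0.015), and Trib3, an inhibitor of the kinase Akt, rose by 1.13 (adjusted p = 0.0062). G6pc, the last enzyme of glucose release, fell by 0.91 (adjusted p = 0.048), and Pck1 had a difference of -0.06 (95% interval -0.41 to 0.30). By list, 2 of 21 genes of gluconeogenesis and glycolysis were higher and 1 lower, and 1 of 14 insulin signalling genes was higher and 2 were lower. The shares called were 14.3% and 21.4%, beside 15% of all genes. In the first list 0 genes were called without ND mouse 2, ND mouse 4 or LU mouse 2. Receptors outside these lists were also low: the leptin receptor gene Lepr was 28.5, 15.8 and 27.5 FPKM in ND mice and 2.45, 5.13 and 5.54 in LU mice (difference -2.22, adjusted p = 0.0015). The growth factor receptor gene Egfr was 126, 183 and 169 FPKM in ND mice and 42.1, 67.2 and 46.6 in LU mice (difference -1.61, adjusted p = 0.011). In HFD mice Lepr was 1.9, 1.37 and 2 FPKM and Egfr 22.6, 18.5 and 39.6. For both genes every LU liver lay between the HFD and ND livers, and neither was called between LU and HFD (adjusted p = 0.14 for each).

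Nitrogen and one-carbon enzymes were lower in part. Of 19 amino acid and urea cycle genes, 2 were higher and 3 lower, and of 15 genes of the methionine and one-carbon cycle 3 were lower and 0 higher. The shares called were 26.3% and 20%, beside 15% of all genes. These counts rested on single mice: in the methionine list 0 genes were lower without ND mouse 4, 1 without ND mouse 2 or any of the LU mice and 6 without ND mouse 3. In the amino acid list 1 was lower without ND mouse 2, ND mouse 4 or LU mouse 8, and 2 or 3 in the other runs, and 1 to 3 were higher. Cps1, the entry enzyme of the urea cycle, was 781, 726 and 1048 FPKM in ND mice and 422, 470 and 446 in LU mice (difference -0.91, adjusted p = 0.01). The aminotransferase Got1 fell by 0.84 (adjusted p = 0.022), while the proline oxidase Prodh rose by 1.04 (adjusted p = 0.005) and the glutamine synthetase Glul by 0.63 (adjusted p = 0.022). Ahcy, Bhmt2 and Cbs fell by 0.50, 0.57 and 0.35 (adjusted p = 0.032, 0.015 and 0.042). With the most abundant transcript alone Ahcy and Cbs were not called (-0.15 and -0.16).

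Phospholipid and sphingolipid lists held calls in both directions. Of their members 36.4% were called in phosphatidylcholine synthesis, 23.1% in sphingolipid synthesis and 27.3% in sphingolipid breakdown, beside 15% of all genes, and across these lists 0 to 2 genes were higher and 0 to 2 lower with 1 mouse left out. In phosphatidylcholine synthesis 2 of 11 genes were higher and 2 lower, and neither increase held under all of the other scalings. Chpt1, the cholinephosphotransferase, was 145, 125 and 126 FPKM in ND mice, 225, 252 and 208 in HFD mice and 187, 176 and 175 in LU mice. Its LU livers lay above the ND livers and under the HFD livers (difference from ND 0.44, standard error 0.10, adjusted p = 0.018, and 0.087 with median-of-ratios scaling, and 0.3 for the most abundant transcript alone). The other increase, of Pisd, and the decrease under the name Ept1 come from transcripts that the GENCODE annotation gives to other gene names, and Pisd had a difference of -0.16 when transcripts were summed by that annotation. The ethanolamine kinase gene Etnk1 fell by 0.62 (adjusted p = 0.028), with a difference of -0.03 for its most abundant transcript alone. In sphingolipid synthesis 2 of 13 genes were higher and 1 lower. Cers6, the ceramide synthase for palmitoyl chains, was 1.78, 2.78 and 2.08 FPKM in ND mice, 7.15, 6.22 and 6.95 in HFD mice and 4.61, 4.59 and 5.45 in LU mice (difference 0.88, standard error 0.15, adjusted p = 0.0043). Every LU liver was above every ND liver. Sptlc2, of the enzyme that starts the pathway, rose by 0.56 (adjusted p = 0.03) and the glucosylceramide synthase Ugcg fell by 0.45 (adjusted p = 0.028). Among 11 breakdown genes 2 were higher, Smpd2 by 0.79 (adjusted p = 0.013) and the ceramidase Acer2 by 0.47 (adjusted p = 0.03), and Sgpl1, which cleaves sphingosine phosphate, fell by 0.41 (adjusted p = 0.031). When a gene was represented by its most abundant transcript alone, Acer2 and Sgpl1 changed sign.

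Drug-metabolising P450 genes of the Cyp2 and Cyp3 families were nearer to the ND level in LU livers than in HFD livers. Of 30 tested genes, 8 were called higher and 1 lower in LU against ND (30% called, beside 15% of all genes). Of these, 5 higher and 0 lower held under each of the other scalings. In HFD against the same ND mice 18 were higher and 0 lower, and in the direct test of LU against HFD 8 were lower and 0 higher. The median difference was 0.35 for LU minus ND, 0.89 for HFD minus ND and -0.46 for LU minus HFD. Genes that stayed above ND were Cyp2a5, the coumarin hydroxylase, Cyp3a11, the main Cyp3a enzyme of mouse liver, Cyp3a59 and Cyp2a22. Cyp2a5 was 37.3, 58.2 and 28.9 FPKM in ND mice, 553, 443 and 580 in HFD mice and 448, 230 and 145 in LU mice (difference from ND 2.60, standard error 0.34, adjusted p = 0.0011). Cyp3a11 was 474, 578 and 792 FPKM in ND mice, 2486, 2286 and 2055 in HFD mice and 1599, 1339 and 1635 in LU mice (difference from ND 1.34, standard error 0.17, adjusted p = 0.0011). No LU liver reached the ND range of either gene. Cyp2a22 was 1.47, 2.52 and 1.88 FPKM in ND mice, 45.6, 39.2 and 39.4 in HFD mice and 9.62, 6.49 and 15.9 in LU mice, and it was called against both groups (1.91 from ND, adjusted p = 9.1e-04, and -1.94 from HFD, adjusted p = 0.0023).

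Other Cyp2 genes were called between LU and HFD and not between LU and ND. Cyp2b9, a female-biased gene, was 0.105, 0.415 and 1.14 FPKM in ND mice, 71, 113 and 61.2 in HFD mice and 1.8, 1.27 and 12.7 in LU mice. LU mouse 8 was the highest of the LU livers, and all 3 were above the ND livers and under the HFD livers. The difference of Cyp2b9 was 1.57 from ND (95% interval 0.23 to 2.90, adjusted p = 0.096) and -4.17 from HFD (adjusted p = 0.0089), and 96.1% of its level came from the gene of the same name in GENCODE. Cyp2c29 and Cyp2c38, named after their values were seen, had differences from ND of 0.22 (95% interval -0.20 to 0.65) and 0.24 (-0.12 to 0.60), and from HFD of -1.52 (adjusted p = 0.0043) and -1.39 (adjusted p = 0.0023). The Cyp2a, Cyp2b and Cyp2c genes have close copies, so their single values are less certain than the pattern of the list. With 1 mouse left out, 4 to 9 of the 30 genes were lower in LU than in HFD, 4 without LU mouse 3. The number higher than in ND was 5 to 10, with 5 without LU mouse 2.

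Part of the glutathione S-transferases also stayed above ND. Of 19 tested genes 8 were called higher and 0 lower (42.1%, beside 11.2% of all genes called higher), 6 of them under each of the other scalings. In LU against HFD 4 were lower, of which 0 to 3 were called with 1 mouse left out (0 without LU mouse 3, 2 without ND mouse 4 or LU mouse 2). Gsta1 was 0.607, 0.726 and 0.545 FPKM in ND mice, 27, 44.8 and 54.3 in HFD mice and 12.7, 13.7 and 20 in LU mice. The 3 groups did not overlap, with LU between the others (3.32 from ND, standard error 0.28, adjusted p = 6.3e-05, and -1.35 from HFD, adjusted p = 0.04). Its copy Gsta2 rose by 1.64 (adjusted p = 0.0014), Gsta4 by 1.04 (adjusted p = 0.0096), and Gsta3 had a difference of -0.01 (95% interval -0.32 to 0.30) from ND and -0.74 from HFD (adjusted p = 0.033). Nqo1, a quinone reductase and textbook target of the antioxidant factor NRF2, was 4.2, 4.48 and 4.63 FPKM in ND mice, 11, 13.4 and 10.9 in HFD mice and 5.31, 4.87 and 8.56 in LU mice. The difference of Nqo1 from ND was 0.38 (adjusted p = 0.15) and from HFD -0.85 (adjusted p = 0.042). Among 19 NRF2 genes 2 were higher in LU than in ND, Hmox1 (0.67, adjusted p = 0.01) and Gpx4 (0.70, adjusted p = 0.0089). That share of 10.5% is near the 11.2% of all genes. Of the conjugating enzymes, 1 of 8 sulfotransferases and 2 of 9 glucuronidation genes were higher and 0 lower. These shares were 12.5% and 22.2%, beside 11.2% of all genes called higher. The number of higher sulfotransferases was 3 without LU mouse 8 and 0 without ND mouse 2, LU mouse 2 or LU mouse 3.

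Male-biased genes were mostly not called between LU and ND livers. Of 22 tested genes, 0 were higher and 2 lower, Slco1a1 and Elovl3 (9.09% called, beside 15% of all genes). In HFD livers 13 were lower than in the same ND mice (59.1%, beside 12.1% of all genes called), and in the direct test 7 were higher in LU than in HFD (0 lower). The median difference was -0.25 for LU minus ND, -1.48 for HFD minus ND and 1.13 for LU minus HFD. The livers of the LU group differed widely here, so that intervals were broad. Hsd3b5, a male-specific hydroxysteroid dehydrogenase, was 45, 97.9 and 39.1 FPKM in ND mice, 0.6, 0.169 and 1 in HFD mice and 49.4, 55.1 and 3.03 in LU mice. LU mice 2 and 3 lay within the ND range and LU mouse 8 lay just above the HFD range (difference from ND -1.33, 95% interval -3.12 to 0.45, and from HFD 3.86, adjusted p = 0.046). Mup7, a major urinary protein named after its values were seen, was 4840, 2938 and 1957 FPKM in ND mice, 252, 66 and 195 in HFD mice and 5006, 7116 and 457 in LU mice, again with mouse 8 apart. Cyp4a12b, also named after its values were seen, was alike in the 3 LU mice at 55, 83.6 and 51.5 FPKM, against 71.8, 83.4 and 65.9 in ND mice and 13.6, 15.9 and 20.4 in HFD mice (LU minus HFD 1.85, adjusted p = 0.0012).

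Without LU mouse 8, 14 of the 22 male-biased genes were higher in LU than in HFD, the median difference from ND was 0.01, and 2 genes were higher and 0 lower than in ND. Without LU mouse 2 or LU mouse 3 the number higher than in HFD was 1 in each case, and without an ND mouse it was 3 or 4. The 2 lower calls against ND were lost without ND mouse 2, ND mouse 4 or LU mouse 8. Slco1a1, the organic anion importer, was 159, 172 and 150 FPKM in ND mice, 18.4, 11.4 and 17.9 in HFD mice and 81.1, 90.4 and 35.4 in LU mice, so no LU liver reached the ND range (difference -1.31, adjusted p = 0.026). Elovl3, a fatty acid elongase, fell by 0.84 (adjusted p = 0.028). The growth hormone feedback gene Socs2 was 40.3, 62.6 and 16.3 FPKM in ND mice and 8.34, 33.2 and 6.89 in LU mice (difference -1.39, adjusted p = 0.099). Of 10 female-biased genes 1 was higher and 3 lower (40% called, beside 15% of all genes), with 1 lower without ND mouse 2, ND mouse 3 or LU mouse 2. Cyp17a1, a steroid hydroxylase on chromosome 19 (46667165 to 46673172, minus strand), had the lowest adjusted p of the genes named here. Its level was 41.2, 42.3 and 33.4 FPKM in ND mice, 3.8, 5.42 and 4.59 in HFD mice and 2.24, 2.89 and 4.89 in LU mice, with LU and HFD overlapping far under ND (difference -3.24, standard error 0.19, adjusted p = 4.4e-06).

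**Figure D4:**
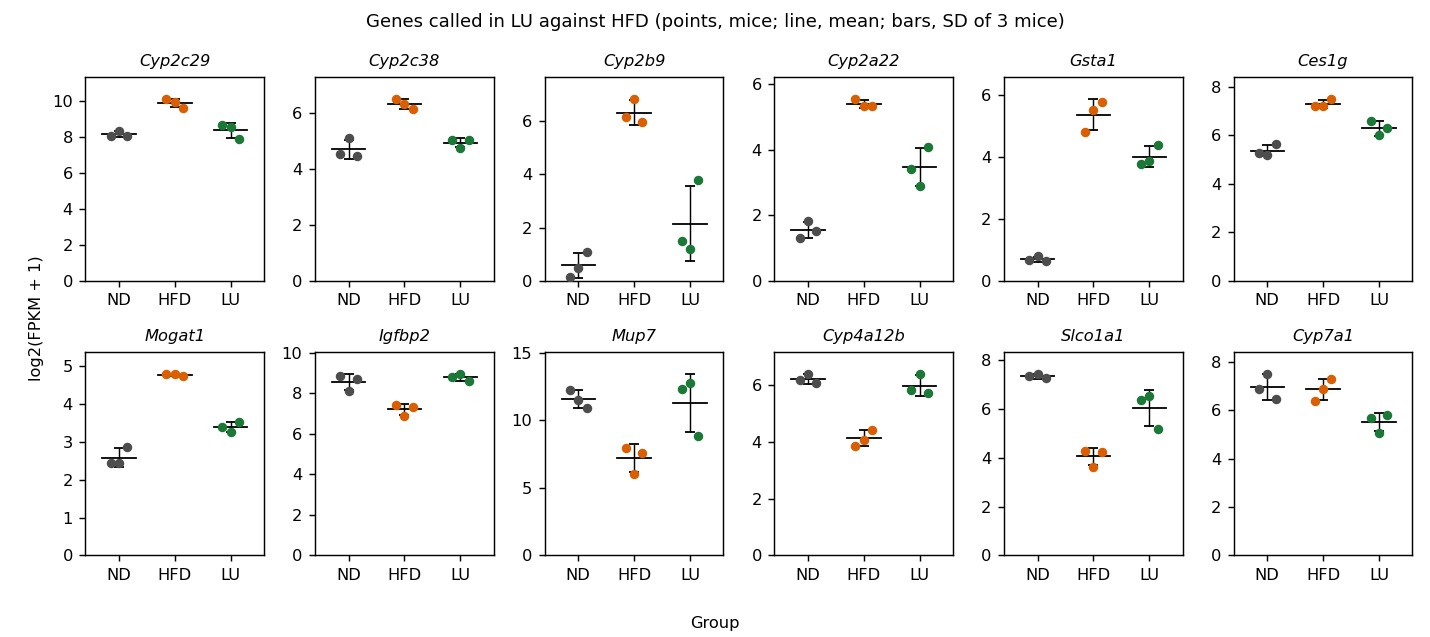
Expression of 12 genes called in LU against HFD, as log2(FPKM + 1) for each mouse of the ND, HFD and LU groups, with the mean and SD of 3 mice. For Igfbp2, Cyp4a12b and Cyp2c38 the LU mice overlap the ND mice, for Gsta1 and Cyp2a22 they lie between the ND and HFD mice, for Mup7 mouse 8 lies apart, and for Cyp7a1 the LU mice lie under both groups.

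Acute-phase genes were higher in LU than in ND livers. Of 20 tested genes, 8 were called higher and 0 lower (40%, beside 11.2% of all genes called higher), 7 of them under each of the other scalings. Between LU and HFD 0 were called by limma (4 at an unadjusted p under 0.05). Serum amyloid A gene Saa1 was 14.4, 29.9 and 35.5 FPKM in ND mice, 294, 146 and 116 in HFD mice and 89.2, 248 and 185 in LU mice. No LU liver overlapped ND (difference 2.64, standard error 0.51, adjusted p = 0.0082). Saa2, Saa3 and Saa4 rose by 2.84, 2.31 and 1.04 (adjusted p = 0.014, 0.01 and 0.0069), the orosomucoid gene Orm2 by 2.34 (adjusted p = 0.0015) and the siderophore binder Lcn2 by 2.45 (adjusted p = 0.024). The feedback inhibitor Socs3 was 2.44, 4.27 and 2.96 FPKM in ND mice, 2.7, 3.6 and 4.02 in HFD mice and 10.9, 12.8 and 7.21 in LU mice. It was above both groups in each LU mouse (1.41 from ND, adjusted p = 0.0055, and 1.33 from HFD, adjusted p = 0.029). Saa and Orm genes have close copies, and the number of higher acute-phase genes was 5 to 8 with 1 mouse left out, 5 without ND mouse 2, LU mouse 3 or LU mouse 8.

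Complement and coagulation genes numbered 7 higher and 1 lower of 29 (27.6% called, beside 15% of all genes). Of these, 2 and 1 held under each of the other scalings. The number higher was 2 without ND mouse 2, 3 or 4 or without LU mouse 3 or 8, and 5 without LU mouse 2. The largest increase of all named genes was that of Cfd, complement factor D or adipsin, on chromosome 10 (79890853 to 79892655, plus strand), a protease made mainly by fat cells. Its level was 0.889, 1.65 and 1.54 FPKM in ND mice, 83.1, 58.9 and 104 in HFD mice and 265, 168 and 71.3 in LU mice. The LU livers were above ND without overlap (difference 5.99, standard error 0.59, adjusted p = 1.8e-04) and overlapped HFD (0.88, 95% interval -0.40 to 2.15). Other genes of fat cells were higher with it. Of the 8 listed adipocyte markers 4 were tested, and 3 were called higher, Cfd, Fabp4 and the adrenergic receptor gene Adrb3 (1.28, and 0.19 with its most abundant transcript alone). Adipoq was 0.759, 0.508 and 0.5 FPKM in LU mice, 0.0805, 0 and 0 in ND mice and 0.0369, 0 and 0 in HFD mice. Lep was listed at 0 in the 6 ND and HFD livers and at 0.139 to 0.187 FPKM in LU livers. The summed level of the 4 tested markers was 1022 to 1449 FPKM in ND and 1248 to 1507 in LU, most of it Pck1, which hepatocytes also express. The part of fat cells in these results was not tested. The coagulation factor gene F5 rose by 0.79 (adjusted p = 0.0025), and the complement gene C8b fell by 1.05 (adjusted p = 0.0082).

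Annexin, S100 and cytoskeleton genes formed, of the lists of functions, the list with the largest share of increases. Of 31 tested genes, 17 were called higher and 0 lower (54.8%, beside 11.2% of all genes called higher), 13 of them under each of the other scalings. The median difference was 0.74. In HFD livers 23 were higher than in the same ND mice, and between LU and HFD livers 0 were called by limma (3 at an unadjusted p under 0.05). Anxa2, a membrane-binding annexin, was 8.93, 9.75 and 11.3 FPKM in ND mice, 54.3, 52.9 and 52.3 in HFD mice and 46.8, 42.2 and 70.9 in LU mice (difference 2.27, standard error 0.22, adjusted p = 1.8e-04). LU livers lay around the HFD level. The galectin gene Lgals1 rose by 1.84 (adjusted p = 0.0039), S100a11 by 1.53 (adjusted p = 0.019), the actin-binding Tmsb10 by 1.44 (adjusted p = 0.0039), and the intermediate filament genes Krt8 and Vim by 1.15 and 1.04 (adjusted p = 0.0011 and 8.8e-04). With 1 mouse left out, 12 to 20 of the 31 genes were higher. Of 22 fibrosis and matrix genes 6 were higher and 0 lower (27.3%, beside 11.2% of all genes called higher). Of these 6, 2 held under each of the other scalings. Col3a1, fibrillar collagen, was 3.29, 3.53 and 3.8 FPKM in ND mice and 9.65, 10.7 and 14.4 in LU mice (difference 1.45, adjusted p = 0.017, and 0.72 with adjusted p = 0.12 for its most abundant transcript alone), and the matrix protein gene Sparc rose by 0.90 (adjusted p = 0.014). The number of fibrosis genes called was 0 without ND mouse 2, 1 without LU mouse 8, 2 without ND mouse 4 or LU mouse 3 and 4 in the other 2 runs. Acta2, the actin of activated stellate cells, had a difference of -0.05 (95% interval -0.67 to 0.57).

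Some markers of other liver cells were called too, and most were not. Of 8 stellate cell markers 4 were higher in LU than in ND (50%, beside 11.2% of all genes), Des, Pdgfrb, Ecm1 and Dcn. The sum over the list was 137 to 186 FPKM in ND and 237 to 264 in LU. The number of higher stellate cell markers was 1 under all of the other scalings, 1 without ND mouse 2, ND mouse 3, LU mouse 3 or LU mouse 8, and 3 in the other runs with 1 mouse left out. Of 8 endothelial markers 3 were higher (37.5%, beside 11.2% of all genes), Stab2, Clec4g and Oit3 (sums 109 to 133 FPKM in ND and 130 to 192 in LU). Of these 1 held under the other scalings, and 0 were called without ND mouse 2 or LU mouse 3, 1 without ND mouse 4, 2 without LU mouse 8 and 3 in the other runs. Of 14 macrophage markers 1 was higher, Cd68, at 2.98, 3.46 and 3.47 FPKM in ND mice and 5.36, 9.86 and 9.77 in LU mice (difference 1.08, adjusted p = 0.018, sums 164 to 191 FPKM in ND and 175 to 313 in LU). That share, 7.14%, was under the 11.2% of all genes called higher. Without ND mouse 2, ND mouse 4, LU mouse 3 or LU mouse 8, 0 of the list were called. The number was 1 without ND mouse 3 and 3 without LU mouse 2. LU mouse 2 had the lowest Cd68, Lyz2 and Cd5l of the LU mice. Of 10 hepatocyte markers 1 was lower, Cps1 (10% called, beside 15% of all genes). The T, B and NK cell, neutrophil and cholangiocyte lists had 0 called members by limma of 5, 3 and 3 tested (0, 1 and 1 at an unadjusted p under 0.05), Ly6g was listed at 0 in the ND, HFD and LU livers, and so were 5 of the 6 acinar markers (Prss2, Cpa1, Pnlip, Amy2a5 and Ctrb1). The other acinar marker, Cela1, was at 12.5 to 15.2 FPKM in ND livers and 9.22 to 16.3 in LU livers. Of 3 erythroid markers tested, the globin genes Hba-a1 and Hba-a2 were higher (0.98 and 0.93, adjusted p = 0.034 and 0.033), neither under the other scalings and neither without ND mouse 2, ND mouse 4, LU mouse 2 or LU mouse 3. The part of these cells in the results of the lists was not tested.

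Clock genes differed between LU and ND livers in both directions. Of 19 tested genes, 9 were called higher and 2 lower (57.9% called, beside 15% of all genes), and 5 and 2 of them under each of the other scalings. The median difference was 0.68. The lower genes were the activators Arntl and Clock, and the higher genes were Per2, Per3, Cry2, Nr1d2, Dbp, Tef, Ciart, Bhlhe40 and Bhlhe41, mostly repressors and output factors. In HFD livers 5 were higher and 1 lower than in the same ND mice, and 0 were called between LU and HFD by limma (3 at an unadjusted p under 0.05). Arntl was 5.8, 3.83 and 9.07 FPKM in ND mice, 2.75, 4.58 and 1.93 in HFD mice and 1.51, 1.67 and 2.6 in LU mice (difference -1.26, standard error 0.26, adjusted p = 0.011). Dbp, an output factor with a strong daily rhythm, was 3.01, 21.4 and 2.06 FPKM in ND mice and 50.3, 38.2 and 26.3 in LU mice (difference 2.55, standard error 0.64, adjusted p = 0.022). ND mouse 3 stood apart from the other ND mice in Dbp and in Per3 (0.943, 3.35 and 0.673 FPKM in ND mice and 7.16, 5.04 and 3.52 in LU mice), and 64.1% of the level under the name Dbp came from that gene in GENCODE. Without ND mouse 3, 9 clock genes were higher and 4 lower. The count of higher genes was 2 without ND mouse 2, ND mouse 4 or LU mouse 2, 3 without LU mouse 3 and 8 without LU mouse 8. The hour at which each liver was taken is not stated in the sources used here, and its part in these differences was not tested.

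Ciart, a repressor that binds the Clock-Arntl complex, was 0.156, 0.457 and 0.418 FPKM in ND mice, 1.61, 1.72 and 3.3 in HFD mice and 5.84, 2.38 and 2.74 in LU mice (difference 1.73, standard error 0.34, adjusted p = 0.0088). Every LU liver was above every ND liver. Its promoter (chr3:95882229-95882478, minus strand, RefSeq, GRCm38.p6) is shown because it holds the element of the Clock-Arntl complex, the E-box CACGTG, 3 times in the 250 bases before the RefSeq start, all of them also before the GENCODE start. Capitals mark the E-box, which reads the same on both strands.
Ciart: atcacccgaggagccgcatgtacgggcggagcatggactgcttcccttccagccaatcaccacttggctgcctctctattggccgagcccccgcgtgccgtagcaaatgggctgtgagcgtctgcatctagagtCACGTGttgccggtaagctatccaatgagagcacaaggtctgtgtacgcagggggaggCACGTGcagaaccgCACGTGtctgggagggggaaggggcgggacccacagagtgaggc
The RefSeq promoters cover 16 clock genes, and 5 of them hold the E-box in this window (31.2%), and of all genes 6.86%. Of the 9 called clock genes with a promoter 3 hold it (33.3%).

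Other genes with large differences lie outside the lists. Tff3, a mucosal trefoil peptide, was 34.5, 58.4 and 13.6 FPKM in ND mice, 0.96, 1.46 and 1.03 in HFD mice and 2.18, 1.83 and 1.43 in LU mice (difference -3.48, standard error 0.37, adjusted p = 3.5e-04). Adam11 was 2, 2.48 and 1.72 FPKM in ND mice and 20.5, 22.5 and 18.9 in LU mice (difference 2.82, standard error 0.21, adjusted p = 2.1e-05). Themis, known from T cell development, was 0.458, 0.651 and 0.965 FPKM in ND mice and 9.36, 8.1 and 12.2 in LU mice (difference 2.68, adjusted p = 9.5e-05), while the T cell markers Cd3e and Cd3d were under 1 FPKM in each of these livers. For these 3 genes the means of the LU and HFD groups were within 0.39 of each other on the log2(FPKM + 1) scale. Serpina1d was 1174, 1062 and 1197 FPKM in ND mice and listed at 0, 0 and 896 in LU mice. It belongs to a cluster of near-identical genes among which fragments are shared out, and its difference is not interpreted.

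Genes of respiration and of the ribosome showed few calls. Of 69 genes of oxidative phosphorylation 1 was higher and 2 lower (4.35%), under the share of all genes (15%), and the 95% interval lay within a 2-fold change for 65 of the 69. The lower genes were Atp5b and Ndufs1 (-0.79 and -0.63, adjusted p = 0.0066 and 0.0089), neither called with the most abundant transcript alone (-0.17 and -0.28). Of 72 cytosolic ribosomal protein genes 2 were higher and 0 lower (2.78%), and 65 had an interval within a 2-fold change. Of 22 chaperones of the endoplasmic reticulum 0 were called by limma and 6 had an unadjusted p under 0.05, with Hspa5 at 357, 257 and 166 FPKM in ND mice and 207, 410 and 233 in LU mice, values too spread to tell the groups apart (95% interval -0.75 to 1.00). Proteasome genes numbered 7 higher of 36 (19.4%), above the 11.2% of all genes, of which 0 held under all of the other scalings and 1 to 5 were called with 1 mouse left out.

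**Figure D5:**
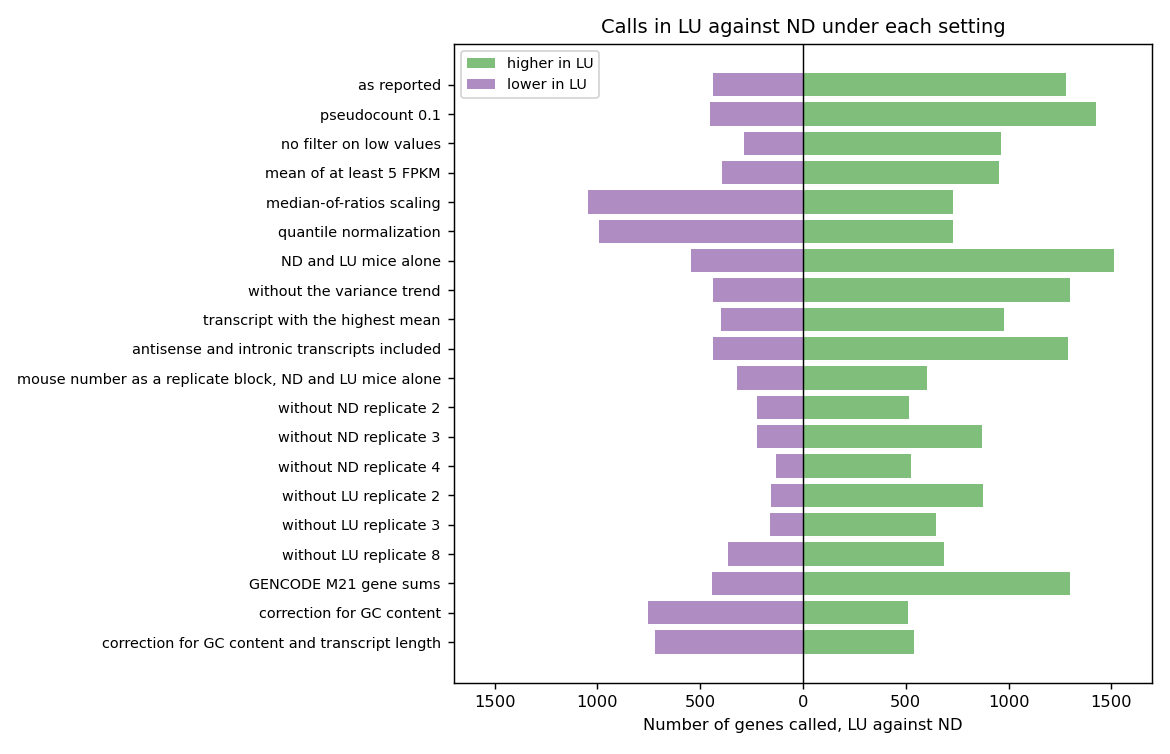
Number of genes called in LU against ND under each setting, to the right for higher and to the left for lower in LU livers. As reported, 1281 genes were higher and 439 lower. Median-of-ratios scaling, quantile normalization and the GC correction moved the balance to the lower side, and leaving out any 1 mouse cut the calls to between 656 and 1091.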

How the data were processed

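Total RNA of whole liver was sequenced from 3 mice per diet group (Illumina HiSeq, paired reads). The authors aligned reads with TopHat2 2.0.12 and Bowtie2 2.2.3 and deposited FPKM per transcript from Cufflinks 2.2.1. Their methods name DEGES/edgeR normalization factors, and whether the deposited FPKM values carry these is not given in the sources used here, nor is the genome build. Of the known transcripts, 87.6% matched the start and end of a transcript in GENCODE M21 (GRCm38), from which coordinates are taken.

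Of 152210 transcripts, 143080 were summed by gene name, and those with no reference (8149), antisense or intronic (840) or unnamed (141) were left out. The transcripts with no reference held 1483577 to 2981618 FPKM in ND libraries and 2385275 to 3660474 in LU libraries. That is most of the FPKM of each library, and its part in the scaling was not tested. The gene name column merges some neighbouring genes, so sums by M21 were added. Genes averaging 0.5 FPKM or more were fitted as log2(FPKM + 1) with limma 3.58.1 (R 4.3.3, trend) on all 12 mice, and p-values were adjusted by the Benjamini-Hochberg method at 0.05. Gene differences are from this fit unless an alternative is named, and adjusted p-values in the text are limma's, over all tested genes. Values carry no counts, so no counting error is given. The scripts were tested on simulated data. Named genes were the 10 called genes with the largest change in each direction whose groups did not overlap (predicted genes left out), up to 4 called members of each list by size of change, and the anchor genes of each list. Further members of the sterol, clock, bile acid, fatty acid, acute-phase, cytoskeleton and macrophage lists, and the genes so marked in the text, were named after their values were seen. Members and lists were chosen with earlier results of these data known. The alternatives were the scaling, filter, pseudocount, samples fitted, transcript choice, GC correction, the mouse number as a block and each mouse left out. Promoters, 250 bases before the start, are RefSeq's (GRCm38.p6). Some genes of the lists enter the counts and are not reported here by name.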

Additional observations from a re-analysis of the deposited data

How the results depend on the processing

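As reported, 1720 genes were called in LU against ND, and fits with 1 mouse left out called 656 to 1091 genes: 656 without ND mouse 4, 742 without ND mouse 2, 806 without LU mouse 3, 1032 without LU mouse 2, 1048 without LU mouse 8 and 1091 without ND mouse 3. Of these, 518 to 876 were higher and 132 to 363 lower. Fewer samples enter those fits. The balance of higher and lower genes, 1281 to 439 as reported, depended on the scaling. It was 728 to 1046 with median-of-ratios scaling, 730 to 990 with quantile normalization, 510 to 752 with the GC correction and 542 to 721 with a correction for GC content and transcript length. Higher genes were 74.5% of the calls as deposited and 40.4% to 42.9% under these settings. Without a filter on low values 286 genes were lower, and 57 in place of 119 differed between LU and HFD, with more genes tested (16827). With the mouse number as a replicate block, in ND and LU mice alone, 925 genes were called, 605 of them higher. Numbers 2 and 3 occur in both groups, and nothing in the labels says that they pair the mice. The correlation of the deviations from the group mean was 0.09 and 0.18 for mice of the same number. It was 0.20 for ND mouse 4 with LU mouse 8 and -0.16 to -0.03 for the remaining pairs. These correlations cannot decide whether the numbers pair the mice, because deviations within so small a group are not independent. The other settings gave 1250 to 2055 calls. With sums by GENCODE M21 the difference of Pisd turned to -0.16, and with the transcript of highest mean level Acer2 turned to -0.77, Sgpl1 to 0.14, Ugdh to -0.47 and Pdgfrb to -0.20. That transcript choice also ended the call of 38 of the 184 named genes. The M21 sums and the GC corrections were added after seeing the data. The causes of the other changes were not tested.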

Other observations

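Of 12 genes of iron handling and metallothioneins, 2 were called higher in LU than in ND livers (16.7%, beside 11.2% of all genes) and 0 lower, the ferritin light and heavy chains, and 0 were called without ND mouse 4. Ftl1 was 1382, 1028 and 884 FPKM in ND mice and 1956, 2009 and 1839 in LU mice (difference 0.84, standard error 0.18, adjusted p = 0.013), with no overlap. Fth1 rose by 0.58 (adjusted p = 0.015). With the GC correction neither was called (adjusted p = 0.06 and 0.064). Hamp, the iron hormone hepcidin, had a difference of -0.20 (adjusted p = 0.72), and 71.8% of the level under that name came from the gene in GENCODE.

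Among 17 hepatokines 2 were higher and 1 lower (17.6% called, near the 15% of all genes). Lect2, a secreted liver protein, was 70.1, 72.9 and 69.5 FPKM in ND mice, 220, 174 and 179 in HFD mice and 165, 127 and 130 in LU mice (difference 0.97, standard error 0.15, adjusted p = 0.0029). Angptl6 rose by 0.70 (adjusted p = 0.017). The fasting hormone Fgf21 was 22.6, 11.4 and 25.7 FPKM in ND mice and 8.04, 6.61 and 22.7 in LU mice, with overlap (difference -0.75, adjusted p = 0.19). Of 12 genes of the growth hormone and IGF1 axis 2 were higher and 0 lower (16.7% called, beside 15% of all genes). These were Socs3 and the binding protein gene Igfbp3 (0.89, adjusted p = 0.005), while Igf1 had a difference of -0.03 (adjusted p = 0.88). Of 14 hydroxysteroid enzymes 3 were higher and 1, Cyp17a1, was lower (28.6% called, beside 15% of all genes). Of these, 1 and 1 held under each of the other scalings, and 1 or 2 were higher with 1 mouse left out. Hsd17b6, a retinol and androgen dehydrogenase, was 52.5, 36.3 and 77.3 FPKM in ND mice and 130, 119 and 180 in LU mice (difference 1.39, adjusted p = 0.005), above ND in each LU mouse.

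Of 22 interferon-stimulated genes 4 were higher and 2 lower (27.3% called, beside 15% of all genes), of which 2 and 2 held under each of the other scalings. With 1 mouse left out, 1 to 4 were higher, 1 without ND mouse 2 or LU mouse 3, and 0 or 1 lower. Bst2, an antiviral membrane protein, rose by 0.78 (adjusted p = 0.0088), and Rsad2, the antiviral viperin, fell by 0.94 (adjusted p = 0.024). Of 8 MHC class II genes 1 was higher (12.5%, near the 11.2% of all genes), H2-DMa (0.88, adjusted p = 0.028). Cd74, the invariant chain, was 43.7, 53.3 and 54.9 FPKM in ND mice and 67.7, 165 and 69.9 in LU mice, with LU mouse 3 highest (difference 0.86, adjusted p = 0.069). Of 12 genes of the integrated stress response 3 were higher (25%, beside 11.2% of all genes). Of these, 1 held under each of the other scalings, and 1 to 3 were higher with 1 mouse left out. The 3 genes were Trib3, Chac1 (1.17, adjusted p = 0.039) and Sesn2 (0.67, adjusted p = 0.03). The factor gene Atf4 had a difference of 0.28 (adjusted p = 0.13). Of 5 genes of the aryl hydrocarbon receptor and its Cyp1 targets 1 was higher, Cyp1a2 (0.97, adjusted p = 0.027, and 0.074 with the GC correction), and of 4 genes of ketone body synthesis and export 1 was lower, the monocarboxylate carrier gene Slc16a1 (-0.91, adjusted p = 0.019). The shares called were 20% and 25%, beside 15% of all genes, and with 1 mouse left out 0 or 1 gene of each list was called.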
